A study of Mus musculus with 22 samples.

Results

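The interleukin 6 family was followed through 6 genes of mouse bone marrow-derived macrophages, taken from the expression table by symbol: the secreted cytokines Il6, Lif, Osm and Clcf1, the shared signalling chain Il6st and the interleukin 6 receptor Il6ra. They are 6 of the 16059 genes in the table, and all 6 were high enough in some library to be tested. The macrophages were grown from C57/BL6 marrow for 7 days with L929 cell supernatant and either left untreated (control) or treated for 3 h in one of 4 ways: with lipopolysaccharide (LPS) at 100 ng/ml, with L-(+)-lactic acid (LA) alone at a dose the labels do not give, with LPS and LA at 10 mM, or with LPS in medium brought to low pH with HCl (pH 6.5 is given as an example). RNA was sequenced in all 5 groups, 2 libraries each, and accessible chromatin was profiled by ATAC-seq, where a transposase inserts adapters into open DNA, in 3 samples each of control, LPS, LA and LPS+LA. HCl lowers the pH without adding lactate; the labels give no pH for LA.

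Cytokines of this family signal through gp130, the product of Il6st. Interleukin 6 first binds its own receptor chain, Il6ra, which macrophages carry and can also shed, while leukemia inhibitory factor (Lif), oncostatin M (Osm) and cardiotrophin-like cytokine factor 1 (Clcf1) use other partner chains. Engaged gp130 activates JAK kinases and STAT3, and STAT3 induces Socs3, which binds gp130 and stops the signal. In macrophages Il6 is a classic target of LPS, switched on through NF-kB, C/EBP and AP-1 factors at its promoter.

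The 250 bases before the RefSeq gene start (GRCm38.p6) are shown for Il6 and Lif, the family members that LPS+LA moved furthest from LPS and in opposite directions. Il6 lies at chr5:30012864-30013113 and Lif at chr11:4257318-4257567, both on the plus strand. Capitals mark matches, on either strand, to the NF-kB consensus, an AP-1 site (TGANTCA), a CRE half-site (TGACG) or a C/EBP site (TTNNGCAA).
Il6: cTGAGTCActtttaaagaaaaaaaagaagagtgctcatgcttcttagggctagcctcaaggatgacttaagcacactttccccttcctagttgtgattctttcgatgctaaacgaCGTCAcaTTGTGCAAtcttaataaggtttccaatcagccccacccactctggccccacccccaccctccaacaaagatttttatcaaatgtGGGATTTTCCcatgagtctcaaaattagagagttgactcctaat
Lif: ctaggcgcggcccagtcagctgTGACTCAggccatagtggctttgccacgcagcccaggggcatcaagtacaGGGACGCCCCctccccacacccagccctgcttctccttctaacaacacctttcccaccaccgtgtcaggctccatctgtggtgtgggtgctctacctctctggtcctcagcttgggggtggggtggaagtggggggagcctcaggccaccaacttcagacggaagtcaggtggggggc
From left to right the capitals in Il6 are an AP-1 site, a CRE half-site, a C/EBP site and an NF-kB match, whose first bases lie 249, 135, 128 and 44 bases before the start. Those in Lif are an AP-1 site 228 bases and an NF-kB match 178 bases before it. None of these matches overlap each other. The search covered 6 motifs in windows of 300 bases, from 250 before to 50 after the start, and 4 of the 6 genes had such a window in the table. In Il6ra the match was a CRE half-site 236 bases before the start, and the Il6st window held none of the 6. Of 32851 RefSeq windows of this length, 8.46% held the NF-kB consensus, 7.81% the AP-1 site, 20.8% the CRE half-site and 10.8% the C/EBP site. The other motifs were the GAS element TTCNNNGAA (8.3%) and TATAAA (13.6%), and neither was found in the 4 windows.

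The RNA libraries held 18668666 to 20219895 counts, and levels are given as CPM, the count scaled to the library total with TMM factors. Macrophage markers (8 of 8 in the table) summed to 13200 to 19000 CPM in every library. The neuron marker sum was 26.4 CPM in replicate 1 of control, 41.7 in replicate 2 of LPS+HCl and at most 7.96 elsewhere, so each fit was repeated without these libraries. Fibroblast markers summed to 10.6 to 11.3 CPM in LPS and at most 3.48 in the other groups, which was Pdgfrb for the most part (up to 10.4 CPM). Col1a1, Col1a2 and Col3a1 stayed at no more than 0.395 CPM, Dcn and Lum at no more than 0.389 and Pdgfra at no more than 0.442. Lum had 11 counts in LPS, 1 each in control and LPS+HCl, and 0 in LA and LPS+LA. Dcn had 8 counts in LPS, 5 in control, 7 in LPS+HCl, and 0 in LA and LPS+LA. T cell markers (4 of 5 in the table) summed to 4.28 to 5.95 CPM in LPS, 3.56 to 3.76 in LPS+HCl and at most 1.77 elsewhere. Lck carried most of this, with a mean of 5.01 CPM in LPS and 3.66 in LPS+HCl, and Cd3e and Cd3d stayed at no more than 0.0808. Cd2 reached at most 0.749 CPM, with 18 counts in LPS+LA and 3 in LPS. Dendritic cell markers reached 3.26 to 4.95 CPM in LPS+LA and at most 2.06 elsewhere. Most of this was Zbtb46, with a mean of 3.74 CPM in LPS+LA against 0.689 in LPS. Flt3, Siglech and Cd209a stayed at or below 0.221 and Xcr1 at or below 0.583. The part of these transcripts in the results was not tested. The labels do not say whether replicates came from separate cultures or animals, and every p-value therefore rests on the spread between these libraries alone. In bulk RNA, fewer producing cells and less RNA per cell cannot be told apart.

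Il6 was silent at rest, very high with LPS and nearly gone when lactic acid was present. Its level was 0 CPM in both control libraries, 854.6 and 800.5 with LPS, 0 and 0.0446 with LA alone, 9.63 and 8.32 with LPS+LA, and 97.4 and 111.5 with LPS+HCl. No library of one LPS-treated group overlapped those of another. Taking 3 counts over both control libraries as the floor, Il6 was at least 13709-fold higher with LPS (Benjamini-Hochberg adjusted p = 2.91e-24 by the quasi-likelihood test of edgeR). LA alone gave 1 count over its 2 libraries and did not pass the test (edgeR adjusted p = 0.347). The LPS+LA mean was 1.08% of the LPS mean and the LPS+HCl mean was 12.6% of it.

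Lif did the opposite under acid. It stood at 0 and 0.0802 CPM in control, 1.43 and 2.38 with LPS, 1.27 and 1.16 with LA, 25.0 and 22.02 with LPS+LA, and 6.18 and 10.0 with LPS+HCl. Both LPS+LA libraries lay above every other library, both LPS+HCl libraries came next, and the LPS libraries lay just above those of LA. From 2 control counts, LPS gave a ratio of 47.1 (95% counting interval 12.5 to 398) and LA alone a ratio of 30.3 (7.99 to 256). Both rises passed edgeR's quasi-likelihood test (adjusted p = 2.18e-07 and 1.3e-05). The intervals cover counting error only. The LPS+LA mean was 1240% of the LPS mean, and that of LPS+HCl 425%.

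Osm, unlike the other ligands, was present at rest. Its levels were 4.65 and 5.69 CPM in control, 18.2 and 18.97 with LPS, 20.5 and 21.6 with LA, 13.3 and 9.43 with LPS+LA, and 9.07 and 8.89 with LPS+HCl. The LPS and LA libraries were the highest, and those with both agents lay between them and control. Osm rose with LPS (log2 fold change 1.84 ± 0.18 SE, edgeR adjusted p = 2.07e-09) and with LA alone (2.02 ± 0.17, adjusted p = 2.74e-09), where the SE is the fold change divided by the square root of the F statistic.

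Clcf1 was almost silent at rest, with 0.0404 and 0 CPM. It reached 8.10 and 8.72 with LPS, 0.395 and 1.38 with LA, 2.68 and 2.69 with LPS+LA, and 4.67 and 6.24 with LPS+HCl. The 5 groups did not overlap. From 1 control count, the ratio was 418 with LPS (counting interval 74.3 to 16563) and 44.0 with LA (7.46 to 1781). Both passed edgeR's quasi-likelihood test (adjusted p = 1.19e-10 and 8.41e-05).

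The receptor chains were high at rest and lower with LPS. Il6st stood at 105.4 and 103.4 CPM in control, 34.9 and 32.6 with LPS, 86.2 and 70.8 with LA, 57.5 and 73.9 with LPS+LA, and 56.4 and 51.2 with LPS+HCl. The LPS libraries were the lowest and the control libraries the highest, while those of LA and LPS+LA overlapped. Il6ra stood at 73.8 and 71.4 CPM in control, 11.02 and 12.95 with LPS, 45.8 and 48.9 with LA, 30.0 and 28.1 with LPS+LA, and 29.9 and 32.2 with LPS+HCl. Again LPS was lowest and control highest, and the groups given LPS with either acid overlapped. LPS left 32.3% of the control mean of Il6st (log2 −1.63 ± 0.11 SE) and 16.5% of that of Il6ra (−2.60 ± 0.11), with edgeR adjusted p = 3.86e-11 and 5.39e-16. With LA alone the falls were smaller, at −0.41 ± 0.11 for Il6st and −0.62 ± 0.09 for Il6ra (edgeR adjusted p = 0.00402 and 1.86e-05). The Il6st fall with LA did not pass without LA replicate 2 (−0.28, adjusted p = 0.0672).

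**Figure D1:**
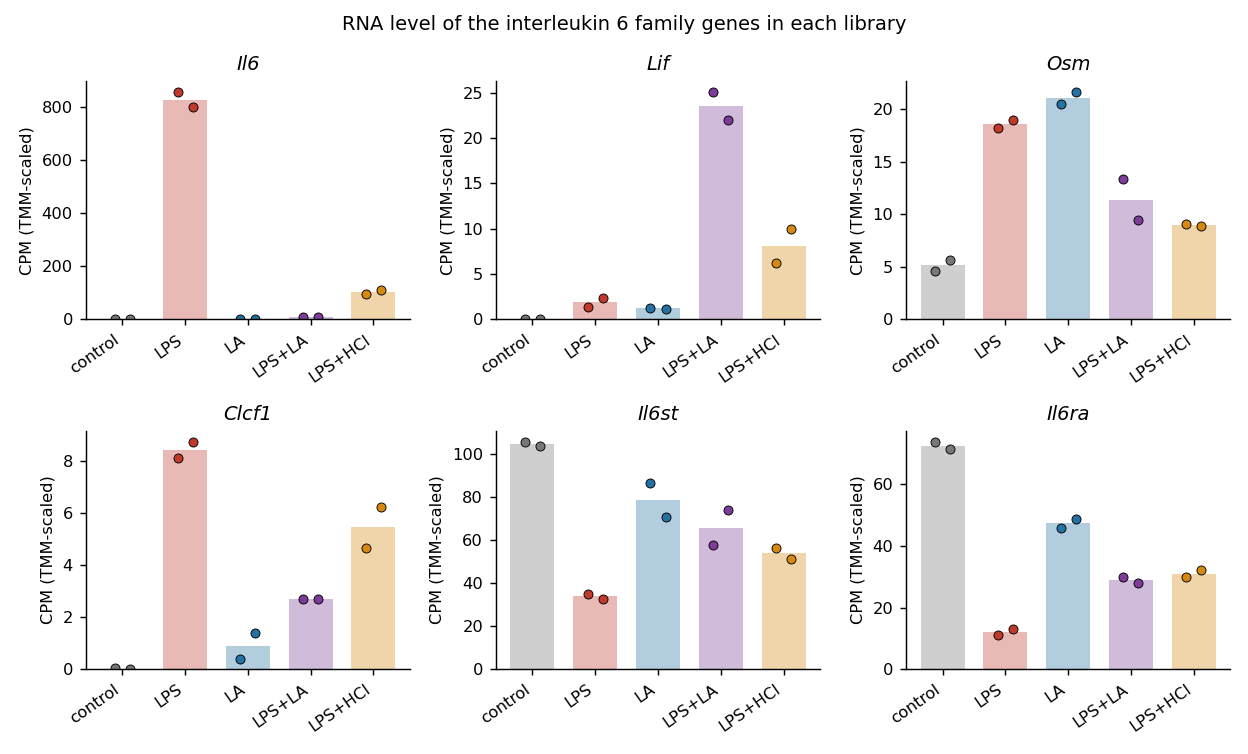
RNA level of each gene in CPM (TMM-scaled; each panel has its own linear axis from 0) by group; points are the 2 libraries and bars their mean. Il6 is high in LPS, Lif is highest in LPS+LA (22.02 and 25.0 CPM), and Il6st and Il6ra are lowest in LPS.

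With LPS, 6 of 6 genes passed the test, 4 higher and 2 lower, where 64.8% of all 12213 tested genes passed (32.4% higher and 32.4% lower). The median log2 change was 3.60 over the 6 and −0.05 over all genes. With LA alone, 5 of 6 passed (Lif, Osm and Clcf1 higher, Il6st and Il6ra lower), against 38.3% of all genes (20.4% higher and 17.9% lower), with medians of 2.10 and 0.0009.

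Compared per length in the deposited TPM values, a ligand led in LPS and LPS+HCl and a receptor chain in the other 3 groups. In control the receptor chains led, Il6ra at 54.05 ± 2.30 TPM (SD, n = 2) and Il6st at 47.7 ± 1.60, followed by Osm at 6.94 ± 0.88, with Clcf1, Lif and Il6 at or below 0.03. In LPS, Il6 led at 1152 ± 45.4 TPM, and Osm (14.96 ± 0.54), Il6st (9.21 ± 0.38), Clcf1 (6.94 ± 0.43), Il6ra (5.34 ± 0.65) and Lif (0.675 ± 0.233) followed with no overlap between neighbours. In LPS+LA the genes were much closer to each other: Il6st stood at 21.98 ± 4.18 TPM, Il6ra at 15.8 ± 0.48, Il6 at 15.2 ± 1.31, Osm at 11.2 ± 2.55, Lif at 9.58 ± 1.20 and Clcf1 at 2.71 ± 0.05. There Il6ra and Il6 overlapped, as did Osm and Lif. In LPS+HCl, Il6 still led at 168.7 ± 19.7 TPM, ahead of Il6st (17.1 ± 0.80) and Il6ra (16.1 ± 1.18), which overlapped, and then Osm (8.40 ± 0.07), Clcf1 (5.25 ± 1.18) and Lif (3.39 ± 1.29). In LA alone Il6st (30.3 ± 4.50 TPM) and Il6ra (29.8 ± 1.05) overlapped, Osm followed at 23.9 ± 0.65, and Clcf1 (1.04 ± 0.80) and Lif (0.61 ± 0.07) overlapped.

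**Figure D2:**
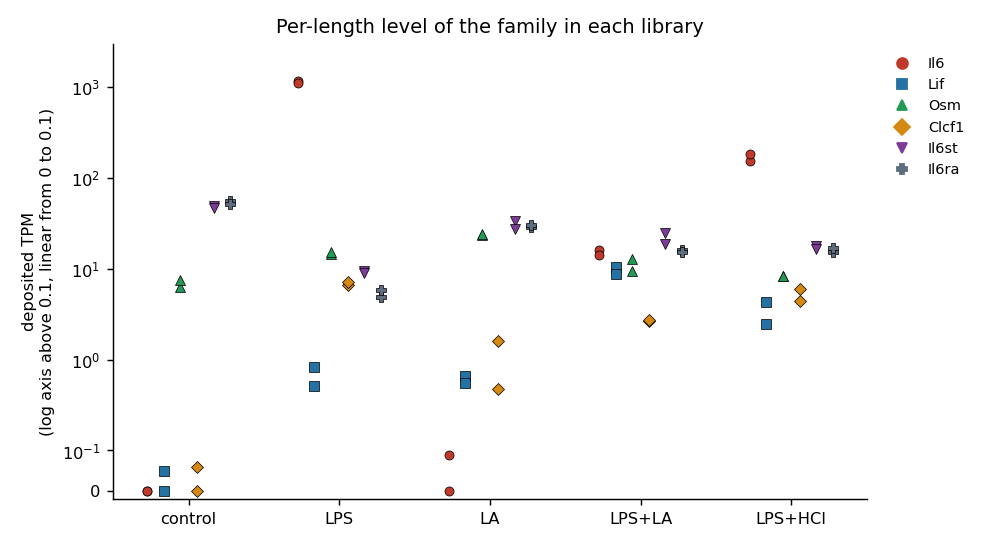
Deposited TPM of the 6 genes in each of the 2 libraries per group, on a log axis above 0.1 and a linear one below it. Il6 spans from 0 in control to above 1000 in LPS, and the 6 genes lie closest together in LPS+LA.

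Adding lactic acid to LPS changed all 6 genes, Il6, Clcf1 and Osm falling and Lif, Il6ra and Il6st rising, where 58.9% of all genes passed (29.2% higher and 29.7% lower). Il6 fell by 6.53 ± 0.11 on the log2 scale (edgeR adjusted p = 2.4e-21), a fold change ranked 29th from the lowest of 12213 genes. Lif rose by 3.63 ± 0.28 (adjusted p = 1.14e-10 by edgeR), ranked 132nd from the highest. Clcf1 fell by 1.65 ± 0.35 (edgeR adjusted p = 0.000345) and Osm by 0.71 ± 0.17 (edgeR adjusted p = 0.000793). Il6st rose by 0.96 ± 0.12 and Il6ra by 1.28 ± 0.12 (edgeR adjusted p = 3.63e-07 and 1.51e-09), and both stayed below control, at 62.9% and 40.0% of its mean. The median over the 6 was 0.13 and over all genes 0.03. The Osm call depends on the scaling: with library totals in place of TMM, which moves the median of all genes to 0.43, it was −0.31 with an adjusted p of 0.107.

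With HCl added to LPS, 5 of 6 genes passed against 38.8% of all genes (18.0% higher and 20.8% lower). This comparison and that of LPS+LA with LPS use the same LPS libraries. Il6 fell by 2.99 ± 0.09 (edgeR adjusted p = 8.26e-17) and Osm by 1.05 ± 0.17 (edgeR adjusted p = 2.65e-05). Lif rose by 2.09 ± 0.29, Il6ra by 1.37 ± 0.12 and Il6st by 0.67 ± 0.12, each with an edgeR adjusted p of at most 9.22e-05. Clcf1, at −0.62 ± 0.33, did not pass (edgeR adjusted p = 0.15). The median was 0.02 over the 6 and 0.01 over all genes.

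Tested directly against each other, LPS+LA and LPS+HCl differed in Il6 and Lif, and 4 of 6 genes passed against 40.9% of all genes (18.4% higher and 22.5% lower). Il6 was lower with LA by a log2 of −3.54 ± 0.11 (edgeR adjusted p = 5.49e-16), an 11.63-fold difference. Lif was higher with LA by 1.54 ± 0.23 (edgeR adjusted p = 9.49e-06), or 2.91-fold. Clcf1 was lower with LA (−1.02 ± 0.36, edgeR adjusted p = 0.025) and Il6st higher (0.29 ± 0.11, edgeR adjusted p = 0.0439). Both calls were thin. Clcf1 did not pass with total-count scaling, with DESeq2, or without LPS+HCl replicate 2 or either LPS+LA library (adjusted p from 0.0551 to 0.195). Il6st did not pass under 9 of 16 alternatives, and without LPS+LA replicate 2 its value was 0.095 (adjusted p = 0.574). Osm (0.34 ± 0.17, edgeR adjusted p = 0.124) and Il6ra (−0.10 ± 0.10, edgeR adjusted p = 0.482) did not pass, which does not show that they were alike, and Osm passed without LPS+LA replicate 2 (0.57, adjusted p = 0.0187) and with total-count scaling (0.51, adjusted p = 0.021).

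**Figure D3:**
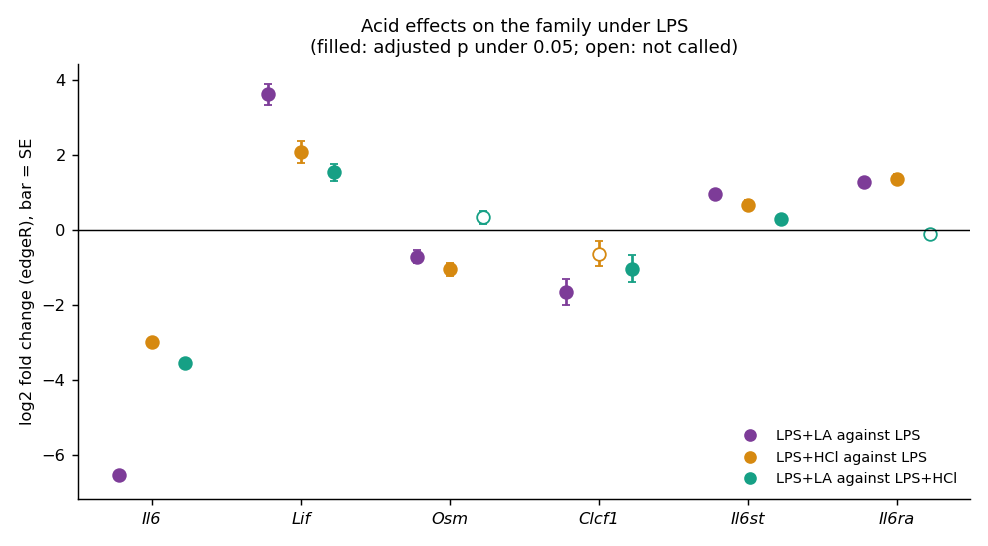
Log2 fold changes of the 6 genes from edgeR with their SE (bars; smaller than the point where not visible) for LPS+LA against LPS, LPS+HCl against LPS and LPS+LA against LPS+HCl; filled points passed an adjusted p of 0.05 and open ones did not. Il6 lies far below 0 in all 3 comparisons, Lif above 0 in all 3.

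With lactic acid present, the family still differed between samples with and without LPS. Between LPS+LA and LA alone, 5 of 6 genes passed, against 30.5% of all genes (15.9% higher and 14.6% lower). The dose of LA alone is not given, so LPS and any difference in LA dose cannot be told apart here. Il6 had 338 counts against 1, a ratio of 405 (counting interval 72.2 to 16053, edgeR adjusted p = 2.59e-14). Lif was higher by 4.27 ± 0.28 and Clcf1 by 1.59 ± 0.41 (edgeR adjusted p = 1.68e-11 and 0.00453), although Clcf1 did not pass without LA replicate 1 (0.95, adjusted p = 0.0793). Osm, which rose with either agent alone, was lower with both than with LA alone (−0.89 ± 0.16, edgeR adjusted p = 0.000121). Il6ra was also lower (−0.70 ± 0.10, edgeR adjusted p = 4.51e-06). Il6st, at −0.26 ± 0.11, did not pass (edgeR adjusted p = 0.0802), but passed in 4 of 16 alternatives, among them without LA replicate 2 (−0.39) and without LPS+LA replicate 2 (−0.45).

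The interaction, which is the LA effect with LPS minus that without it, passed for 5 of 6 genes, against 44.3% of all genes (20.4% higher and 23.9% lower). Because the dose of LA alone is not given, an interaction and a difference in LA dose cannot be told apart. Osm gave −2.73 ± 0.24, Il6st 1.37 ± 0.16 and Il6ra 1.89 ± 0.15 (edgeR adjusted p = 1.48e-09, 2.74e-07 and 2.8e-10). The values for Clcf1 (−6.73 ± 0.92, edgeR adjusted p = 2.23e-06) and Il6 (−8.70 ± 2.73, edgeR adjusted p = 0.0125) rest on 1 and 0 control counts and are no bounds. For Il6 the call was lost without LA replicate 2, which holds its only LA count (−6.53, adjusted p = 1.0). For Lif, at −1.09 ± 0.91, the interaction did not pass (edgeR adjusted p = 0.359). The separate values for Lif, with 2 control counts behind one of them, were 4.72 ± 0.70 for LA without LPS and 3.63 ± 0.28 with it.

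Of 7 further ligands and partners 3 were tested: 2 rose with LPS and the same number fell from LPS to LPS+LA. These were Il27 and Ebi3, the subunits of interleukin 27, which also signals through gp130. Il27 rose with LPS by 11.40 ± 0.20 and fell with LPS+LA by 3.08 ± 0.11, and Ebi3 rose by 3.18 ± 0.08 and fell by 1.23 ± 0.08 (each edgeR adjusted p at most 2.74e-13). Cntf, ciliary neurotrophic factor, was at 1.71 ± 1.00 in LPS+LA against LPS and did not pass (edgeR adjusted p = 0.149). Of 5 further receptor chains 3 were tested, and 2 fell with LPS, Lifr, the partner chain for Lif (−1.49 ± 0.36, edgeR adjusted p = 0.00167), and Il11ra1 (−0.48 ± 0.14, edgeR adjusted p = 0.00552). In LPS+LA against LPS, Il11ra1 was higher (0.41 ± 0.15, edgeR adjusted p = 0.0184), which did not pass with DESeq2 or without LPS replicate 1 or LPS+LA replicate 2. The fall of Il11ra1 with LPS did not pass without LPS replicate 1 (−0.36). Lifr (0.57 ± 0.38) and Il27ra (−0.52 ± 0.57) did not pass there (edgeR adjusted p = 0.216 and 0.454), but Lifr passed without LPS+LA replicate 1 (1.17, adjusted p = 0.000626) and with total-count scaling (0.97, adjusted p = 0.0365). Without LPS+LA replicate 2 the value for Lifr was −0.48. Osmr, the oncostatin M receptor, was too low to be tested, and went the other way with LPS. It had 13 counts in LPS, 20 in LPS+HCl and 0 in control, LA and LPS+LA. With DESeq2 or with no filter on low counts, 1 of these further chains was higher with LPS, and 1 was lower in LPS+LA than in LPS.

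The JAK-STAT genes below gp130 moved together with LPS and from LPS to LPS+LA, but not with LA alone. All 8 JAK-STAT genes tested rose with LPS (median log2 2.04; for this and the other pathway lists, the medians and shares of all genes are those given with the family's counts) and all 8 fell from LPS to LPS+LA (median −1.44). For Jak1 and Ptpn11 the rise with LPS rests on the TMM scaling. Before it, summed counts in control and LPS were 8762 and 9082 for Jak1 and 3679 and 3580 for Ptpn11. Jak2, a kinase bound to gp130, rose by 4.84 ± 0.09 and fell by 1.70 ± 0.07. Stat5a rose by 3.72 ± 0.10 and fell by 2.25 ± 0.09. Stat3, the main STAT of this pathway, fell by 1.46 ± 0.07 with LPS+LA (edgeR adjusted p at most 1.38e-14 for these values). With HCl, 7 of the 8 fell (median −0.43), a count that was not checked with other scaling. Before scaling, summed counts in LPS and LPS+HCl were 15834 and 15781 for Stat3 and 3580 and 3528 for Ptpn11. With LA alone, 2 rose, 2 fell and 4 did not pass (median −0.10). Of 6 inhibitors, 5 rose and 1 fell with LPS, and 4 fell and 1 rose from LPS to LPS+LA (medians 5.17 and −1.11). From LPS to LPS+HCl 2 inhibitors fell, 1 rose and 3 did not pass (median −0.04). Socs3 rose with LPS by 8.43 ± 0.10 and fell with LPS+LA by 0.58 ± 0.07 (edgeR adjusted p = 3.83e-26 and 7.74e-08). Socs1, which blocks JAK kinases, fell by 2.11 ± 0.09 with LPS+LA, Cish by 1.22 ± 0.08 and Ptpn2, a phosphatase of JAKs and STATs, by 1.16 ± 0.12 (each edgeR adjusted p at most 2.28e-08). Cish rose with LPS by 7.72 ± 0.13 (edgeR adjusted p = 8.27e-24).

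Genes known to be induced by STAT3 split. All 8 rose with LPS (median 4.57), and from LPS to LPS+LA 5 fell, 1 rose and 2 did not pass (median −0.23), a split that became 2 lower and 2 higher with total-count scaling. Without LPS replicate 1, LPS replicate 2 or LPS+LA replicate 2, 3 fell, and without LPS replicate 1 or LPS+LA replicate 2 none rose. With HCl, 4 rose and 2 fell relative to LPS (median 0.22). Saa3, an acute-phase protein, rose with LPS by 7.83 ± 0.16 and fell with LPS+LA by 6.43 ± 0.14, and Pim1, a survival kinase, rose by 4.99 ± 0.08 and fell by 1.82 ± 0.07 (each edgeR adjusted p at most 3.4e-16). Fgl2 fell by 0.64 ± 0.11 (edgeR adjusted p = 0.000103), which did not pass with total-count scaling (−0.24).

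Transcription factors known to act on Il6 all rose with LPS (6 of 6, median 3.47), and 5 fell and 1 rose from LPS to LPS+LA (median −1.39), the riser not passing without LPS replicate 1 or either LPS+LA library. Cebpd, a C/EBP factor, fell by 3.72 ± 0.09 with LPS+LA, Nfkb1, which encodes the p50 NF-kB subunit, by 1.75 ± 0.07 and Rel, the c-Rel subunit, by 1.69 ± 0.10 (each edgeR adjusted p at most 1.18e-12). With LPS, Nfkbiz, an NF-kB cofactor needed for Il6, rose by 7.17 ± 0.09 and Nfkb1 by 3.24 ± 0.07 (edgeR adjusted p = 1.58e-25 and 2.12e-21). With HCl, 5 of the 6 fell and 1 rose (median −0.87). Of 6 RNA-binding proteins that set the life of cytokine mRNAs, 5 rose and 1 fell with LPS, and 4 fell and 1 rose from LPS to LPS+LA, or 2 and 2 with total-count scaling. The riser was Zfp36l1, which promotes decay of AU-rich mRNAs, by 3.17 ± 0.09. Arid5a, which stabilises Il6 mRNA, fell by 1.78 ± 0.11 and Rc3h1, a decay factor, by 0.73 ± 0.09 (each of these 3 with an edgeR adjusted p of at most 5.62e-07). With LPS, the decay factors Zc3h12a and Zfp36 rose by 4.70 ± 0.10 and 4.47 ± 0.08 (edgeR adjusted p = 2.91e-21 and 2.85e-23). In LPS and LPS+LA their means were 378.7 and 412.4 CPM for Zc3h12a, and 2262 and 1785 for Zfp36. With LA alone, all 6 genes of this list rose (median 1.17). The part of these genes in the Il6 level was not tested.

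Of 4 genes for shedding of the interleukin 6 receptor, 3 rose with LPS, where 32.4% of all genes did, and 2 fell from LPS to LPS+LA, where 29.7% did, or 2 higher and 2 lower with total-count scaling. Adam17, the protease that releases the receptor, rose by 1.49 ± 0.07 and fell by 1.17 ± 0.07, and Rhbdf2, its trafficking partner, rose by 3.14 ± 0.08 and fell by 0.85 ± 0.07 (each edgeR adjusted p at most 4.32e-10). Adam10 did not pass in LPS+LA against LPS (−0.10 ± 0.08, edgeR adjusted p = 0.273), and was 0.30 with total-count scaling.

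Genes whose pattern lay nearest to each member over the 10 libraries were found by the root mean square difference of log2(CPM + 0.5), each gene centred on its mean, and r is given as a description. Nearest to Il6 were Cxcl9 (difference 0.43, r = 0.998), Il12b (0.68, r = 0.988) and Lipg (0.70, r = 0.992). Nearest to Lif were Dusp14 (0.66, r = 0.959), Fbxo40 (0.66, r = 0.939) and Dusp1 (0.84, r = 0.904). Osm lay nearest to Btg2 (0.19, r = 0.964), Btg1 (0.20, r = 0.973) and Sgk1 (0.28, r = 0.921). Clcf1 lay nearest to Arid5a (0.29, r = 0.993), Spaca6 (0.29, r = 0.988) and Lpar1 (0.30, r = 0.986). For Il6st they were Dscc1 (0.093, r = 0.986), Mvb12b (0.11, r = 0.98) and Efr3b (0.12, r = 0.979), and for Il6ra they were Pif1 (0.19, r = 0.976), Aspm (0.21, r = 0.976) and Zmynd8 (0.22, r = 0.989). The libraries are shared by all these genes, so r reflects the 5 conditions and no more.

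ATAC peaks within 50 kb of the gene bounds were counted in each sample. All samples without LA ran on lane 5 and all with LA on lane 6, so effects of LA on peaks and lane cannot be told apart, whereas each LPS comparison stays within a lane. The lists held 80386 to 86566 peaks in control, 88807 to 100667 in LPS, 76680 to 80820 in LA and 85571 to 99435 in LPS+LA. Around Il6 (chr5:30013114-30019975) there were 8, 7 and 8 peaks in control, 12, 14 and 12 in LPS, 6, 7 and 7 in LA, and 6, 8 and 7 in LPS+LA. The LPS samples lay above all others, and LPS+LA overlapped with LA and with control. Around Lif (chr11:4257568-4272514) there were 19, 19 and 18 peaks in control, 23, 23 and 24 in LPS, 17, 17 and 16 in LA, and 22, 23 and 22 in LPS+LA. Osm (chr11:4236785-4241026) had 18 peaks in each control sample, 22, 22 and 23 in LPS, 19, 17 and 17 in LA, and 22, 22 and 20 in LPS+LA. At both genes the samples given LPS had more peaks than those without it in either lane. Osm and Lif are neighbours, 16541 bases apart, and 20 of the 32 sites near them lie within 50 kb of both, so their counts are not independent.

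By exact permutation of LPS labels within each LA state, peaks rose with LPS near Lif (mean difference 5.17) and Osm (4.0), each with p = 0.005, the smallest the 400 partitions allow, and a Benjamini-Hochberg adjusted p of 0.0414. These are 2 of 6 genes, and 12.1% of 15959 genes passed (33.7% at an unadjusted p of at most 0.05). Of the 1926 genes that passed, 1916 had more peaks with LPS, and the median difference over all genes was 1.0. No gene of the 15959 passed within 10 kb, with labels permuted within replicate numbers, or without control replicate 2 or any 1 of the LA samples. A lost call there does not by itself bear on Lif or Osm in particular. Within 10 kb, however, the unadjusted permutation p was 0.045 for Lif and 0.185 for Osm, where the smallest over all genes was 0.005. Leaving out 1 sample kept the difference at 5.00 to 5.25 for Lif and 3.83 to 4.33 for Osm, and within 10 kb it was 1.67 and 0.67. With the 70000 top-scored peaks of each sample, which removes the unequal list lengths, again no gene passed, Lif stood at 1.17, Osm turned to −0.33 and the Il6 difference was 0.50. Osm also did not pass without LPS+LA replicate 2. Il6 had a mean difference of 2.67 (exact permutation p = 0.05, adjusted p = 0.149), from 5.00 more peaks without LA and 0.33 more with it, and passed within 100 kb (8.17, adjusted p = 0.0304). Whether the LPS effect differed between LA states was not tested. For LA no gene of the 15959 passed the permutation test with adjustment (0.0%), and 1747 (10.9%) had an unadjusted p of at most 0.05, among them Il6 (−3.33, p = 0.015) and Lif (−1.50, p = 0.015), each with an adjusted p of 0.372. Clcf1 (chr19:4214238-4223505, 15 to 19 peaks), Il6st (chr13:112464070-112506860, 12 to 17) and Il6ra (chr3:89869324-89913196, 15 to 22) passed neither exact permutation test.

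**Figure D4:**
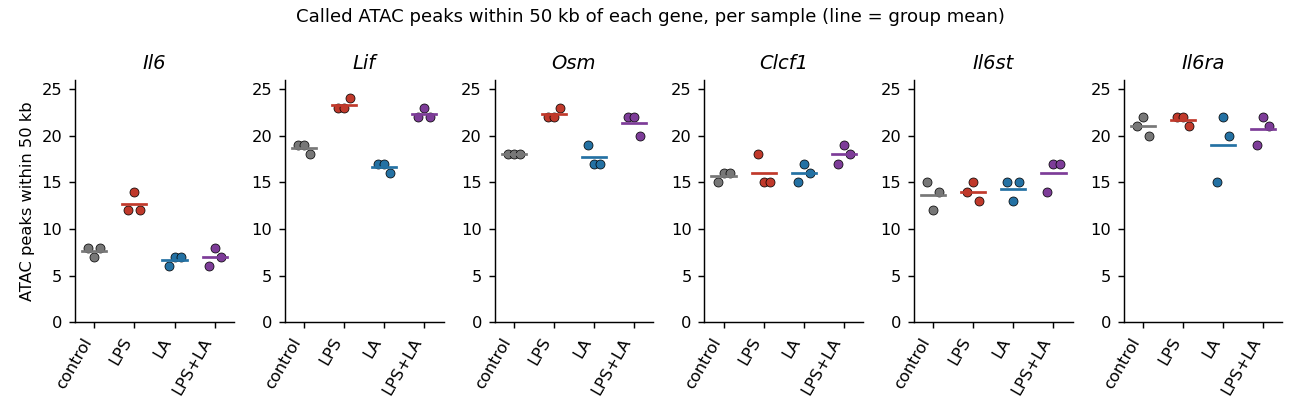
Called ATAC peaks within 50 kb of each gene on a linear axis from 0, with 1 point per sample (3 per group) and a line at the group mean. Il6 has 12 to 14 peaks in LPS and 6 to 8 in the other groups, and Lif and Osm have more peaks in LPS and LPS+LA than in control and LA.

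Merged over samples, 117 sites lay within 50 kb of the 6 genes, and a site counted as gained or lost where each of 3 samples of one group had a peak and none of the other. With 3 against 3, an exact permutation test of 1 site cannot go below p = 0.1, so these are descriptions. With LPS 12 of the 117 (10.3%) were gained, where 8.27% of all 127890 sites were, and 3 were lost, against 2.44%. From LPS to LPS+LA 4 were lost (2.29% of all sites) and 2 gained (2.24%). With LA alone 2 were gained (1.53%) and 3 lost (2.38%), and from LA to LPS+LA 4 were gained (6.01%) and 2 lost (0.483%). Shares among the family's sites therefore lay near those of all sites for gains with LPS.

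The Il6 locus held 14 sites, 4 of them with a peak in all 12 samples. One of these, chr5:30012634-30013574, covers the gene start and all 4 motif matches printed in capitals for Il6, so the promoter had a peak in every sample, also where Il6 RNA was 0. LPS gained 3 sites: chr5:29965688-29966104 and chr5:29970715-29971004, which lie 47010 and 42110 bases outside the gene bounds and overlap no RefSeq gene, and chr5:30020388-30021082, 413 bases beyond the end of Il6 within the long noncoding gene A230098N10Rik. The last 2 were present in 3 of 3 LPS samples and 0 of the other 9. By the authors' own score, the site beyond the gene end equalled or exceeded 28.6%, 37.9% and 40.8% of the peaks in the 3 LPS lists. It thus lay below the median score of each list, and with the 70000 top-scored peaks it was present in 2 of 3 LPS samples. The site 42110 bases away was in 0 of them. The first site, in contrast, was also in 3 of 3 LPS+LA and 2 of 3 LA samples.

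Around Osm and Lif, 32 sites were found and 17 had a peak in all samples. LPS gained 4: chr11:4198840-4199256 in Tbc1d10a, chr11:4223967-4224656 between genes, chr11:4235352-4235699, which lies 1086 bases from the Osm bounds, and chr11:4289257-4289629 in Gm11958. All 4 had peaks in at least 2 of 3 LPS+LA samples, and none of the 32 was lost from LPS to LPS+LA. With the 70000 top-scored peaks, 1 of 31 sites was gained and 1 lost in that comparison (2.85% and 2.91% of all sites). The site chr11:4223967-4224656 was also gained with LA alone, although with the top-scored peaks it was in 0 LPS samples and in all 6 samples with LA. Within Osm, chr11:4237545-4237845 had a peak in 3 of 3 control, 0 LPS, 1 LA and 0 LPS+LA samples. Within Lif, chr11:4270845-4271165 was lost with LA alone and present in 3 of 3 control, 3 of 3 LPS and 2 of 3 LPS+LA samples. The site chr11:4257182-4257428 ends 140 bases before Lif and holds both motif matches printed in capitals for Lif. It had a peak in 0 control, 0 LPS, 2 LA and 2 LPS+LA samples, and with the top-scored peaks in 2 LA samples only. All samples with a peak at this site ran on lane 6. For this and the other differences with LA near Osm and Lif, LA and lane cannot be told apart. Of the other sites that differed most between LPS+LA and LPS, chr11:4252640-4252891 had peaks in 2 LPS+LA samples only, and chr11:4319202-4319596 in 2 control, 3 LPS, 0 LA and 1 LPS+LA samples.

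**Figure D5:**
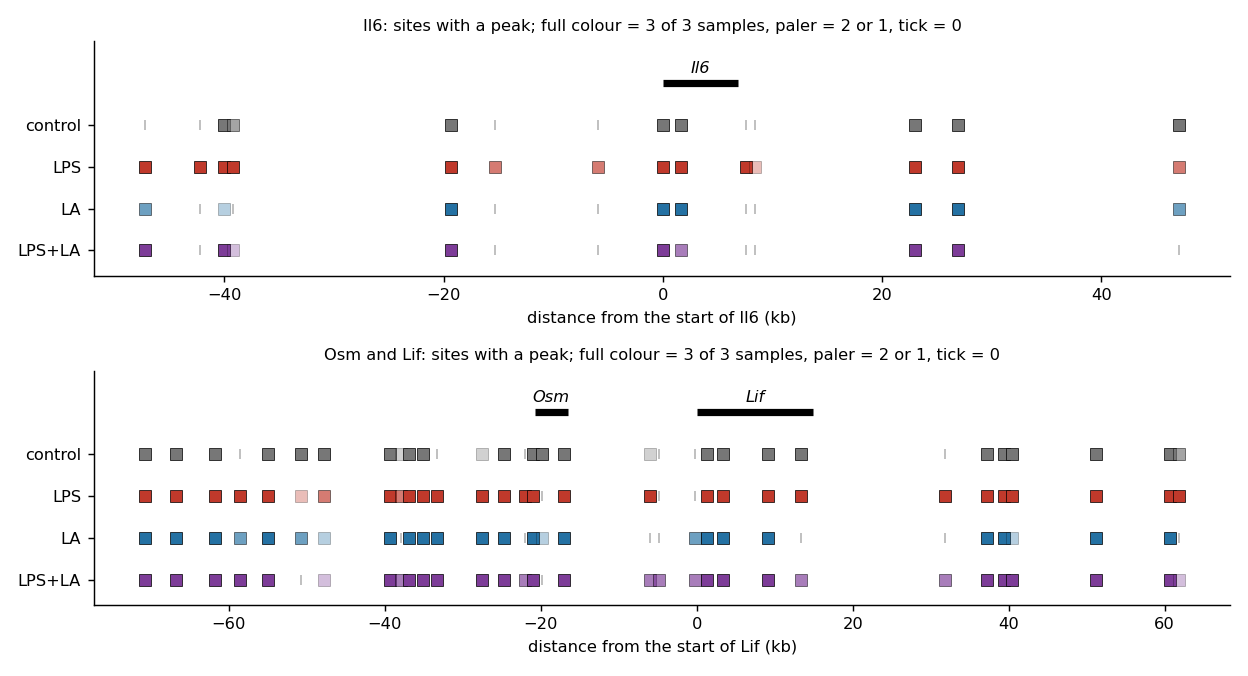
Merged ATAC sites within 50 kb of Il6 (top) and of Osm and Lif (bottom), placed by the distance of their centre from the start of Il6 or Lif in kb; rows are groups, the colour deepens with the number of samples (of 3) that had a peak, and ticks mark 0. At Il6 the sites 42110 bases outside the gene and 413 bases past its end are filled in the LPS row alone. No Osm or Lif site is in all 3 samples of LPS or LPS+LA and absent from the other, though some differ in the number of samples.

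At Clcf1 (21 sites, 11 in all samples), chr19:4230496-4230858, 6991 bases from the gene bounds, had a peak in 3 of 3 LA and 3 of 3 LPS+LA samples and in none without LA, a split that follows the lanes. LPS gained chr19:4260456-4260936, which was kept in 3 of 3 LPS+LA samples, and chr19:4261001-4261325, which was in 0 of them. The site chr19:4216111-4216515 within Clcf1 had peaks in the 3 control samples only. At Il6ra (28 sites, 13 in all samples), LPS gained chr3:89896593-89896982 within the gene and chr3:89941568-89941984, both in 3 of 3 LPS+LA samples too, and chr3:89959555-89959836, which was in 0 of them. LPS lost chr3:89932263-89932678, present in 3 of 3 control and 3 of 3 LA samples and in none given LPS. The site chr3:89883709-89884090 within Il6ra had peaks in all groups but LA, and chr3:89842392-89842588 had peaks in the 3 LPS+LA samples only. At Il6st (22 sites, 9 in all samples) no site was gained or lost between LPS and control. From LA to LPS+LA, chr13:112541781-112542080 was gained and chr13:112433168-112433781 lost, and these were in 2 of 3 and 1 of 3 LPS samples. The sites that differed most between LPS+LA and LPS there did so by 2 samples, such as chr13:112431792-112432320 (1 LPS and 3 LPS+LA) and chr13:112542615-112543103 (2 LPS and 0 LPS+LA). The starts of Il6st and Il6ra, like that of Il6, had a peak in all 12 samples.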

How the data were processed

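RNA was measured in 10 libraries and open chromatin in 12 samples, grouped by the labels alone. The members and gene lists were chosen with earlier results of these data known.

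For every gene the authors deposited an expected count, FPKM and TPM in each library. The submitters' processing notes name HISAT, Bowtie2 and GRCm38.p6. No source here states how counts were estimated or whether strand was used; reads of Il6 and A230098N10Rik, of Clcf1 and Gm45928 or LOC102631992, and of Il6ra and Gm46811, which overlap, cannot be told apart. Expected counts (6.07% not whole) were rounded. The deposited TPM served for levels between genes, and the deposited FPKM values and group averages were not used. Genes were kept by filterByExpr (minimum count 10, total 15; 12213 of 16059), scaled by TMM and fitted over all libraries with edgeR 4.0.16 (quasi-likelihood, robust, 1 term per group, two-sided, Benjamini-Hochberg over all genes, threshold 0.05). Fold changes are on the log2 scale.

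For ATAC the authors deposited peaks per sample with a score. Their processing notes name BWA 0.5.9, Picard, MACS2 2.0.10 and mm10 (GRCm38), and lanes are per the file headers. Any shifting of reads is not described, and peak lists hold no read depth. Peaks were merged at an overlap of 1 bp into 127890 sites, and peaks within 50 kb of RefSeq gene bounds (15959 genes matched by ID) were tested by exact two-sided permutation within strata. Promoter sequences are RefSeq's.

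Named were the 6 members, of each of 8 pathway lists (50 genes, 44 tested) up to 3 genes with the smallest adjusted p in LPS+LA against LPS and up to 2 in LPS against control, Socs3 always, and the 3 genes most similar to each member. Sites were named at gene starts, where gained or lost, and where LPS+LA and LPS differed most. Both test steps were tested on simulated data. Alternatives were other scaling, DESeq2 1.42.0, no filter, a replicate block, each sample left out, the 70000 top-scored peaks, distances of 10 and 100 kb, and peaks covering at least 50% of a site.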

Additional observations from a re-analysis of the deposited data

Results flagged for a closer look

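The LA effect with LPS differed from that without LPS for 5 of the 6 genes by the interaction term of edgeR's quasi-likelihood test. Of all genes 44.3% passed this test. The labels give no dose for LA alone, so a difference in LA dose cannot be told apart from an interaction. The log2 differences were −6.73 for Clcf1, −2.73 for Osm, −8.70 for Il6, 1.37 for Il6st and 1.89 for Il6ra. Osm was higher with LA alone in 2 of 2 libraries (20.5 and 21.6 CPM, against 4.65 and 5.69 in control) and lower with LPS+LA than with LPS in 2 of 2 (13.3 and 9.43 CPM, against 18.2 and 18.97). Il6st and Il6ra fell with LA alone and rose when LA was added to LPS. The Il6 and Clcf1 values rest on 0 and 1 control counts, and the Il6 call was lost without LA replicate 2 (−6.53).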

How the results depend on the processing

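Of 42 results (6 genes in 7 RNA comparisons), 33 kept their side of the threshold and did not reverse in any of the 16 alternatives. Among these, Il6 in LA against control went down to 0, which has no direction, when 1 library was left out. With total-count scaling, which moved the median of all genes to −0.77 in LPS against control and 0.43 in LPS+LA against LPS, Osm in LPS+LA against LPS was −0.31. In LPS+LA against LPS+HCl that scaling gave Osm 0.51, Clcf1 −0.86 and Il6ra 0.068, which is reversed, and in LPS+LA against LA it gave Il6st −0.46, which was −0.25 with no filter on low counts. In LPS+LA against LPS+HCl, DESeq2 called 2 genes in place of 4, no longer Clcf1 (−1.045) and Il6st (0.27), its size factors in edgeR no longer gave a call for Il6st (0.27), and the fit without both libraries with neuron transcripts called 2, no longer Clcf1 (−0.80) and Il6st (0.22). Among pathway genes Adam10 in LPS+LA against LPS reversed to 0.30 with total-count scaling.

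Leaving out 1 library at a time gave 2 to 4 genes called in LPS+LA against LPS+HCl (Clcf1 −1.22 to −0.80, Il6st 0.095 to 0.47, Osm 0.085 to 0.57). The range for Il6st in LA against control was −0.56 to −0.28. In LPS+LA against LA it was 0.95 to 2.74 for Clcf1 and −0.45 to −0.076 for Il6st. The Il6 interaction ranged from −9.53 to −6.53, and in LPS+LA against LPS Cntf from −0.16 to 2.56 and Lifr from −0.48 to 1.17.

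For the LPS effect on peaks near the 6 genes, 0 passed with the top 70000 peaks (Lif 1.17, Osm −0.33), 0 within 10 kb (Lif 1.67, Osm 0.67, Clcf1 −0.17, Il6st −0.33, Il6ra −0.17) and 4 within 100 kb (Il6 8.17, Clcf1 3.83), where 22.8% of all genes passed. The LA effect within 100 kb reversed for Clcf1 (−1.17) and Il6ra (0.67). Leaving out 1 sample gave 0 to 2 genes (Lif 5.00 to 5.25, Osm 3.83 to 4.33).

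Counts of sites move with the number of sites looked at. Sites gained with LPS numbered 7 of 100 with the top 70000 peaks (7.0%, against 7.53% of all sites in that setting), 3 of 49 within 10 kb (6.12%) and 19 of 191 within 100 kb (9.95%), the last 2 against 8.27%, and those lost 7 with the top 70000 peaks (7.0%, against 5.27%). With peaks covering at least 50% of a site, LA against control gained 1 and lost 5, and LPS+LA lost 1 against LA. Within 10 kb, 1 was gained with LA, 1 gained and 1 lost from LPS to LPS+LA, and 1 gained and 0 lost from LA to LPS+LA. Within 100 kb, 4 were gained from LPS to LPS+LA and 10 from LA to LPS+LA. Leaving out 1 sample gave 12 to 15 gained and 3 to 5 lost with LPS, 2 to 4 and 3 to 6 with LA, 2 to 4 and 4 to 7 from LPS to LPS+LA, and 4 to 10 and 2 to 3 from LA to LPS+LA. The cause of these changes was not tested, beyond fewer peaks, sites or samples.

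With the replicate number as a block, the RNA fit gave Il6st 0.29 in LPS+LA against LPS+HCl, no longer past the threshold, and changed no other call of the 6 genes. Permuting within replicate numbers left 0 genes with an LPS effect on peaks (Lif 5.17, Osm 4.0). The labels link samples across groups by a number alone. Deviations of same-numbered libraries correlated between −0.432 (control and LPS+HCl) and 0.0402, and of ATAC samples between −0.0684 and 0.0274. Neuron markers were high in replicate 1 of control (26.4 CPM) and replicate 2 of LPS+HCl (41.7 CPM), and their part in the −0.432 was not tested. With 2 libraries or 3 peak lists per group and no read depth behind a peak, small differences were not detectable.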
